A study of Mus musculus with 6 samples.

Results

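Long intergenic noncoding RNAs (lincRNAs) are transcripts that lie between protein-coding genes and carry no long open reading frame. Many are capped, spliced and polyadenylated like messenger RNAs, and as a class they are known for low abundance and for expression that varies strongly between tissues and stages. Early catalogues of mouse lincRNA loci were drawn from chromatin marks of active promoters and transcribed bodies, which show that a region is transcribed but not from which strand. Before birth the liver is the main site of blood formation and is rich in erythroid cells, whereas the adult liver is dominated by mature hepatocytes that carry out metabolism, detoxification and secretion.

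The 732 probes described here are the non-control array features whose names mark them as mouse lincRNA loci (649 probes named mouselincRNA, 322 with a plus and 327 with a minus sign) or lincRNA exons (83 probes named MM9LINCRNAEXON, 50 plus and 33 minus), of 60915 non-control probes in all. They were chosen by name alone. The mouselincRNA names cover 332 loci, of which 317 have a probe for each strand sign. The exon names cover 71 exons, of which 12 have both. The files pair these probes with no gene, position or sequence, so the names are given as the array has them, without their shared ending _P1, and the meaning of the strand sign is not given in the sources used here.

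Total RNA of C57BL/6 mice, bought from a supplier, was compared at 2 ages. The prenatal group was liver RNA of embryonic day 18, which 1 label puts slightly later, and the adult group was liver RNA of mice aged 2 months, each from 3 animals according to the series and hybridised to 3 single-colour arrays. The tissue field of the prenatal samples says embryo, while their title and source say liver. No treatment or genetic change is named in the labels. Of 29 marker genes of liver cell types that were looked for, only the transferrin receptor Tfrc, abundant on erythroid precursors, has a probe that the files tie to a gene. Its log2 signal, scaled as described below, averaged 8.14 ± 0.15 (SD, n = 3) in the prenatal samples, against 4.52 ± 0.23 (SD, n = 3) for adult ones (limma adjusted p = 0.000182), and the other markers were not read, so the labelled tissue was checked no further.

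Signals below are log2 of the processed spot signal minus the 75th percentile of the array, so that 0 is a spot as bright as that percentile and an increase of 1 is a doubling. A probe counts as detected on an array where the scanner software marked it well above background. Across the arrays, 45.0% to 60.6% of all non-control probes were detected, no spot was saturated, and prenatal replicate 2 was the brightest array. Prenatal replicate 1 stood apart: 18.2% of the tested mouselincRNA probes and 12.9% of the tested exon probes differed there by more than 4-fold from the mean of the other 2 prenatal arrays, beside 12.5% of all tested probes. On each of the other arrays that share was at most 5.03% for mouselincRNA and 3.23% for exon probes. Of 15 negative probes, 1 was detected on prenatal replicate 1 and 0 on each other array. Per the file headers, prenatal replicate 1 and adult replicate 3 were scanned on 1 day and the other 4 arrays on another. Precision is limited by there being 3 arrays a group.

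Most mouse lincRNA probes gave no signal in either liver. Of the 649 mouselincRNA probes, 416 (64.1%) were detected on no array, 74 on 1 or 2 arrays, 79 on 3 to 5 arrays and 80 (12.3%) on all 6. Among all non-control probes, 33.4% were detected on no array. The exon probes were detected more often than the locus probes, with 40 of 83 (48.2%) on no array, 12 on 1 or 2, 11 on 3 to 5 and 20 (24.1%) on all 6. Fewer cells of a type and less RNA per cell cannot be told apart in RNA of whole liver, here or in any value below.

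Detected mouselincRNA probes numbered 149, 193 and 161 in the 3 prenatal livers and 137, 117 and 147 in the adult livers. For the exon probes the counts were 30, 36 and 31 before birth and 30, 24 and 28 in the adult. Both classes had the highest count on prenatal replicate 2 and the lowest on adult replicate 2, as did all probes. By strand sign, 16.5% to 29.2% of plus and 19.6% to 30.3% of minus mouselincRNA probes were detected per array, and the minus share was the higher one on all 6 arrays. For exon probes the ranges were 32.0% to 44.0% for plus and 24.2% to 42.4% for minus. Probes named humanlincRNA on the same arrays were detected at 17.8% to 27.1%, above the mouselincRNA share on adult replicate 3 and below it on the other 5 arrays. These shares are descriptions, with no test.

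**Figure D1:**
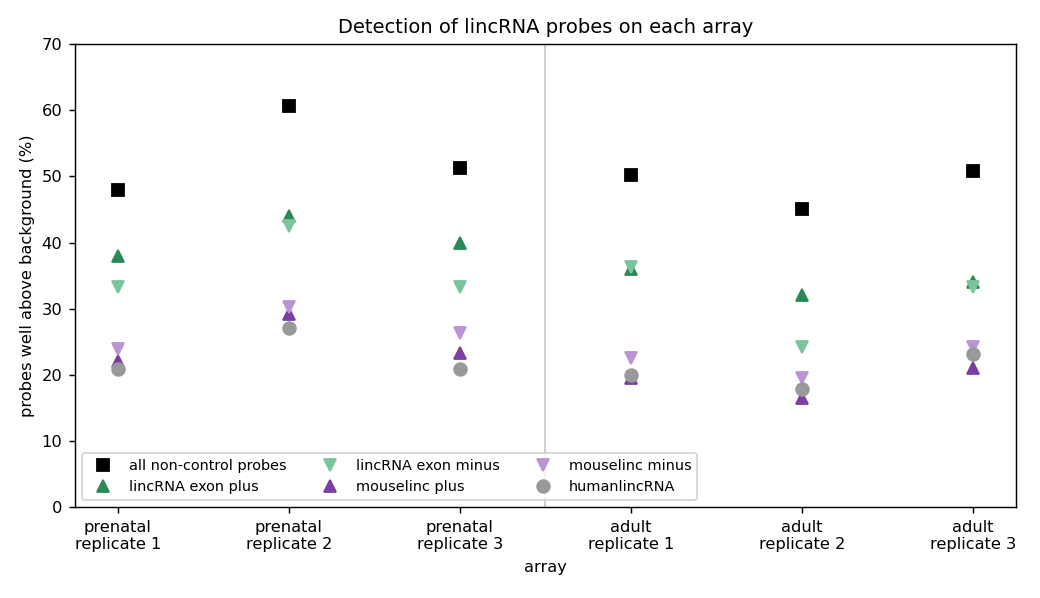
Share of probes well above background (%) on each of the 6 arrays, for both lincRNA classes split by strand sign, for probes named humanlincRNA and for all non-control probes. On every array the squares of all probes lie highest (45.0% to 60.6%), the exon probes between, and the mouselincRNA and humanlincRNA probes lowest, and prenatal replicate 2 has the highest share of each set.

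A probe entered the comparison of adult with prenatal liver when it was detected on at least 3 of the 6 arrays. That held for 159 of 649 mouselincRNA probes (24.5%) and 31 of 83 exon probes (37.3%), beside 53.1% of all non-control probes. A probe is said to be called where its limma p, Benjamini-Hochberg adjusted across the 32336 probes that entered, was under 0.05. This held for 27.8% of all tested probes, with 15.8% brighter in the adult and 12.0% brighter before birth.

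Of the 159 tested mouselincRNA probes, 42 (26.4%) were called: 28 (17.6%) had more signal in the adult, 14 (8.81%) had more before birth, and the other 117 missed the threshold. Of the 31 tested exon probes, 8 (25.8%) were called, 6 (19.4%) with more signal in the adult and 2 (6.45%) with more before birth, and 23 missed it. The difference was at least 2-fold for 41 of the 42 and 7 of the 8, and over all tested probes for 8421 of the 8987 called (26.0% of those tested). The share called in either direction was near that of all tested probes. The median log2 difference, adult minus prenatal, was -0.01 over the tested mouselincRNA probes and 0.02 over the tested exon probes, against 0.06 over all tested probes. By strand sign, 23 of 73 plus (31.5%) and 19 of 86 minus (22.1%) mouselincRNA probes were called, as were 6 of 20 plus and 2 of 11 minus exon probes. Values of the 2 ages were fully separate for 67 of the tested mouselincRNA probes (42.1%) and 12 of the exon probes (38.7%), beside 47.6% of all tested probes. Every called probe was among these, also over all tested probes, so that separation adds nothing to a call. Without adult replicate 3, 27 mouselincRNA probes were called in place of 42, and without adult replicate 1, 2 or 3 the count higher in prenatal liver was 9, 9 and 8 in place of 14. Calls over all probes were fewer in these fits too, at 5387 in place of 8987 without adult replicate 3, and at 2450, 2280 and 2256 in place of 3866 for those higher in prenatal liver. All 42 and 8 called probes had the same direction within each scan day, one of which held 1 array of each group. That follows from the separate values of the 2 ages, so it adds nothing to a call either.

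**Figure D2:**
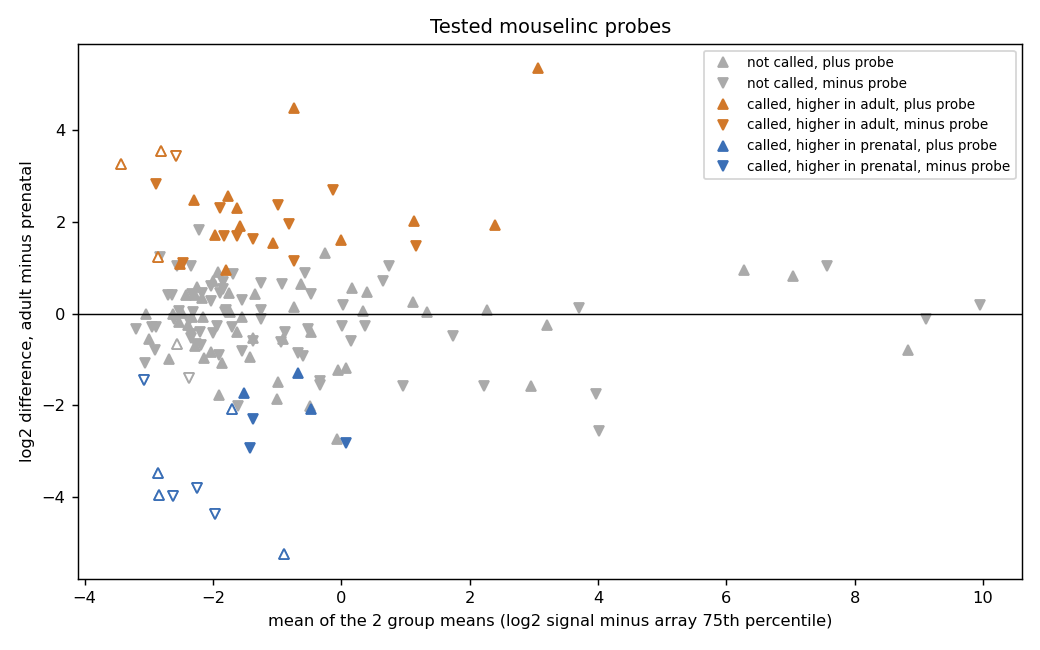
Log2 difference, adult minus prenatal, of the 159 tested mouselincRNA probes (vertical axis) against the mean of the group means (horizontal axis, log2 signal minus the array's 75th percentile), with triangles pointing up for plus and down for minus probes. The 28 orange probes were called with more signal in the adult and the 14 blue ones with more before birth, with mouselincRNA0939+ at 5.35; the 117 grey probes were not called. Open triangles mark probes detected on no array of one group, whose plotted difference is a fitted value against readings not well above background.

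Among the mouselincRNA probes detected on all arrays, the signal that rose most between prenatal and adult liver was that of mouselincRNA0939+. It read 1.1, -0.04 and 0.09 before birth and 5.64, 5.65 and 5.90 in the adult, a 40.7-fold higher level in the adult with a log2 difference of 5.35 (SE 0.36, limma adjusted p = 0.000169). The lowest adult value lies far above the highest prenatal one. mouselincRNA0342+ followed, with -3.18, -2.93 and -2.81 before birth and 1.27, 1.60 and 1.64 in the adult, a log2 difference of 4.48 (SE 0.25, limma adjusted p = 8.47e-05). Only prenatal replicate 2 among the prenatal arrays detected that probe, and the adult arrays stood close together.

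Of the mouselincRNA probes called in this direction, 4 were detected on every adult array and on no prenatal one, which gives only a bound for the prenatal level. The bound sets the adult mean against the higher of the probe's own prenatal signal and the dimmest detected signal of that array. For mouselincRNA0424- the adult values were -0.97, -0.89 and -0.74 and the prenatal readings -4.78, -4.93 and -3.16, at least 4.12-fold higher in the adult (limma adjusted p = 0.00322). For mouselincRNA1400+ they were -1.40, -1.14 and -0.56 against -4.78, -4.39 and -4.58, at least 3.67-fold higher (limma adjusted p = 0.000417). For mouselincRNA0155+ they were -2.55, -1.81 and -1.03 against -4.78, -5.39 and -5.02, at least 2.16-fold higher (limma adjusted p = 0.00217). The fourth, mouselincRNA1181+, was at least 1.58-fold higher (limma adjusted p = 0.0417). Without prenatal replicate 2 the 4 bounds were lower, at 3.27-fold, 2.92-fold, 1.72-fold and 1.26-fold in the order given. Without prenatal replicate 1 they were higher, at 4.81-fold, 4.29-fold, 2.53-fold and 1.85-fold. The adult and prenatal readings were separate in each case, which follows largely from choosing probes detected in adult liver alone. Such probes also entered the comparison through their adult arrays only. With the normexp background correction, which adds an offset of 50 to every signal, mouselincRNA0155+ was not called (limma adjusted p = 0.135). Of 15 fits compared, only 7 called mouselincRNA1181+, with log2 differences of 0.32 to 1.53. Among the same fits, 15 called mouselincRNA0424-, 15 mouselincRNA1400+ and 14 mouselincRNA0155+.

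The remaining probes among the 8 with the largest rise were mouselincRNA0315-, mouselincRNA0892- and mouselincRNA1244+. mouselincRNA0892- was detected on all 6 arrays, with -1.40, -1.45 and -1.59 before birth and 1.27, 0.58 and 1.77 in the adult, 6.44-fold higher (limma adjusted p = 0.00211). mouselincRNA1244+ read -3.86, -2.64 and -2.66 against -0.41, -0.63 and -0.44 (log2 difference 2.56, SE 0.38, limma adjusted p = 0.00387), and prenatal replicate 1 did not detect it. mouselincRNA0315- read -4.78, -3.31 and -4.80 against -1.06, -1.38 and -1.97 (log2 difference 2.83, SE 0.48, limma adjusted p = 0.00659), and of the prenatal arrays only replicate 2 detected it. The groups of all 3 probes were separate, as for every call. The spread was wider before birth for mouselincRNA1244+ and mouselincRNA0315-, whose prenatal values lie near or below the limit of detection. The other 20 mouselincRNA probes called higher in the adult had log2 differences of 0.95 to 2.47 and limma adjusted p values of 0.00202 to 0.0495.

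**Figure D3:**
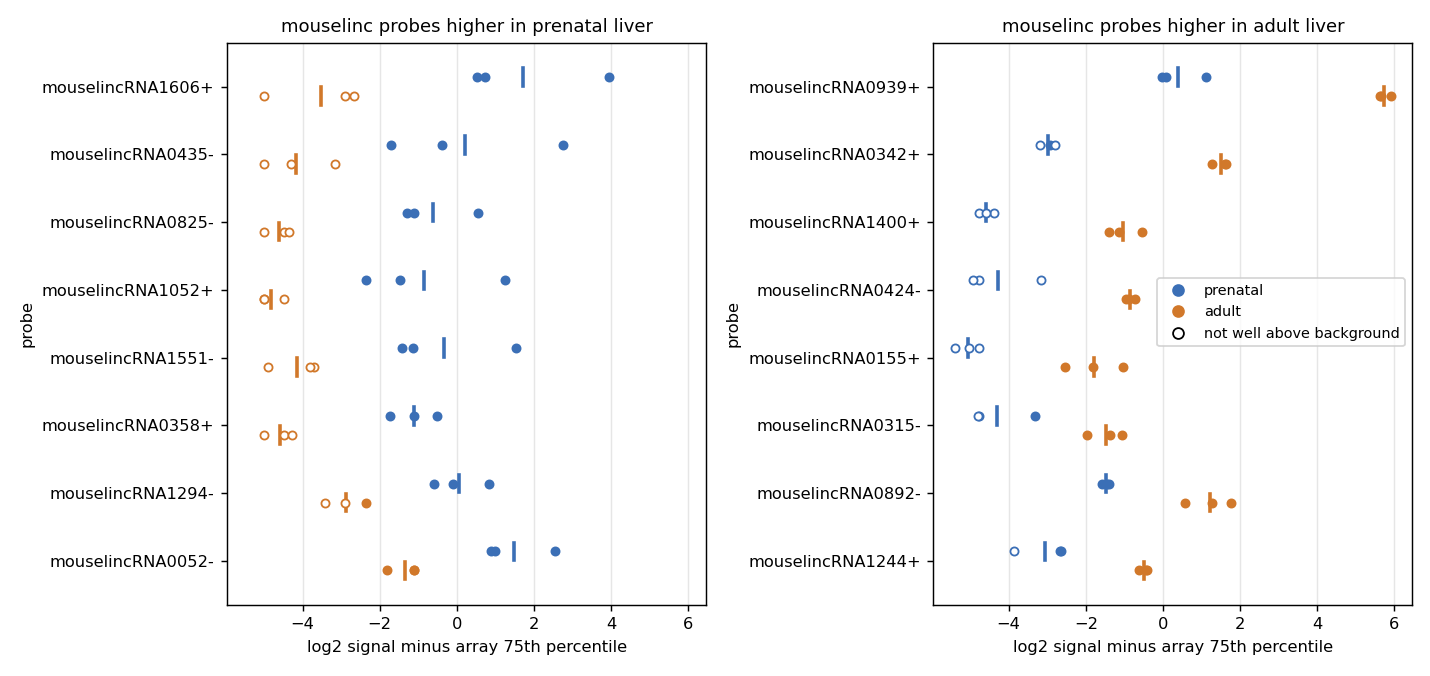
Log2 signal minus the array's 75th percentile (horizontal axis) on each of the 3 prenatal (blue) and 3 adult (orange) arrays for the 8 mouselincRNA probes with the largest called difference in each direction; vertical bars are group means and open circles are arrays on which the probe was not well above background. The probes were chosen among calls with separate groups. On the prenatal side the farthest point to the right is often prenatal replicate 1, as for mouselincRNA1606+ at 3.94.

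Of the 14 mouselincRNA probes called higher in prenatal liver, 6 of the 8 with the largest fitted difference were detected on all prenatal arrays and on no adult array, so that their levels have only bounds and no order. mouselincRNA1606+ read 3.94, 0.52 and 0.72 before birth and -5.00, -2.91 and -2.67 in the adult, at least 18.8-fold higher before birth (limma adjusted p = 0.0120). mouselincRNA0435- read 2.75, -0.37 and -1.71 against -5.00, -4.30 and -3.17, at least 6.59-fold higher before birth (limma adjusted p = 0.0293). Both were highest on prenatal replicate 1, by more than 3 log2 units over either of the other prenatal arrays. Without that array the bounds were 8.72-fold for mouselincRNA1606+ and 2.74-fold for mouselincRNA0435-, and both were still called (limma adjusted p = 0.00553 and 0.0107). The bounds rested on the other prenatal arrays as well: for mouselincRNA1606+ it was 28.5-fold without prenatal replicate 2, and for mouselincRNA0435- 12.9-fold without prenatal replicate 3.

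mouselincRNA0825- (0.55, -1.11 and -1.30 before birth), mouselincRNA1551- (1.54, -1.43 and -1.13) and mouselincRNA1052+ (1.24, -2.35 and -1.47) had the same order, with prenatal replicate 1 highest. They were at least 3.67-fold, 4.46-fold and 3.12-fold higher in prenatal liver (limma adjusted p = 0.00230, 0.0157 and 0.0171). Without prenatal replicate 1 these bounds were 2.45-fold, 2.33-fold and 1.5-fold, and that of mouselincRNA1052+ was 5.23-fold without prenatal replicate 2. mouselincRNA0358+ differed from these, since its prenatal values of -1.74, -1.10 and -0.52 were lowest on replicate 1; it was at least 2.61-fold higher before birth (limma adjusted p = 0.00115). mouselincRNA0786+ read -0.78, -0.56 and -0.64 on the prenatal arrays and was at least 3.59-fold higher there than in the adult, where no array detected it (limma adjusted p = 0.00139). Across the 14 probes called higher in prenatal liver, prenatal replicate 1 gave the highest value for 9 (64.3%), beside 51.0% of all probes called in that direction with a value on every array. Without that array all 42 mouselincRNA probes were still called, and 49 in all, while the calls over all probes numbered 11561 in place of 8987.

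Some of these calls ended when an adult array was left out. Without adult replicate 1, 2 or 3, mouselincRNA0435- had limma adjusted p values of 0.0954, 0.0923 and 0.0610, and mouselincRNA1052+ of 0.0594, 0.0532 and 0.0662, so that for both the call ended whichever adult array was removed. mouselincRNA1551- was not called without adult replicate 1 (limma adjusted p = 0.0583) or adult replicate 3 (limma adjusted p = 0.0519). With the normexp correction and its offset of 50, mouselincRNA1606+, mouselincRNA0825-, mouselincRNA0435-, mouselincRNA1551- and mouselincRNA1052+ were not called (limma adjusted p = 0.0618 to 0.251).

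The last pair of the 8 was detected in adult liver too, at least in part. mouselincRNA0052- was detected on all 6 arrays, with 2.54, 1.0 and 0.90 before birth and -1.11, -1.12 and -1.81 in the adult, 7.09-fold higher in prenatal liver (log2 difference -2.83, SE 0.50, limma adjusted p = 0.00735). mouselincRNA1294- read -0.59, -0.09 and 0.82 against -2.89, -3.41 and -2.35 (log2 difference -2.93, SE 0.45, limma adjusted p = 0.00440), and adult replicate 3 alone among the adult arrays detected it. Prenatal and adult values were separate for both, as for every call. The other 6 mouselincRNA probes called higher in prenatal liver had log2 differences of -2.31 to -1.30.

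Detection in one group alone was rare. Of the 649 mouselincRNA probes, 10 (1.54%) were detected on all prenatal and no adult arrays, beside 2.19% of all non-control probes, and 4 (0.616%) on all adult and no prenatal arrays, beside 0.827%. Of the 83 exon probes, 1 was detected only in prenatal and 2 only in adult liver in this sense. Among these, mouselincRNA0901- (limma adjusted p = 0.0892) and mouselincRNA1467+ (limma adjusted p = 0.156), both detected only before birth, did not pass, and all others did. Such calls are largely built in, since the probes were picked by detection in a single group and entered the comparison through it. The share called among all such non-control probes was not counted.

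Both exon probes called with more signal in prenatal liver carry a plus sign. MM9LINCRNAEXON11382+ read 1.63, 1.23 and 1.57 before birth and -5.00, -3.13 and -4.47 in the adult, where no array detected it, so that its level was at least 15.8-fold higher in prenatal liver (limma adjusted p = 0.000436). MM9LINCRNAEXON11506+ read 0.62, 0.62 and 0.85 against -1.86, -2.44 and -2.99, with a log2 difference of -3.13 (SE 0.34, limma adjusted p = 0.00104), and adult replicate 1 was the only adult array that detected it. The prenatal values of each probe lay close together, prenatal replicate 1 included, and far above the adult ones.

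The 6 exon probes with more signal in adult liver were led by MM9LINCRNAEXON11712-. It was detected on all arrays, with -0.05, 1.09 and 1.41 before birth and 5.49, 5.84 and 5.82 in the adult, 29.8-fold higher (log2 difference 4.90, SE 0.41, limma adjusted p = 0.000400). MM9LINCRNAEXON10612+ and MM9LINCRNAEXON11274+ were detected on all adult arrays and no prenatal one. Their adult values were -1.99, -1.0 and -2.01 for the first and -1.71, -1.11 and -2.07 for the second, at least 2.36-fold and 2.42-fold higher in the adult (limma adjusted p = 0.00153 and 0.00269). These bounds were 1.88-fold and 1.93-fold without prenatal replicate 2, and 2.76-fold and 2.84-fold without prenatal replicate 1. Neither was called with the normexp correction (limma adjusted p = 0.0944 and 0.105).

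The other exon probes with a call differed by smaller amounts and were detected on all 6 arrays. MM9LINCRNAEXON10664+ read 3.80, 3.36 and 3.66 before birth and 5.0, 5.09 and 5.2 in the adult, 2.81-fold higher (limma adjusted p = 0.00552). MM9LINCRNAEXON11806+ read -0.16, 0.44 and 0.12 against 1.47, 1.27 and 1.08, 2.20-fold higher (limma adjusted p = 0.0226). MM9LINCRNAEXON10294- read -1.05, -1.35 and -1.09 against -0.15, -0.11 and -0.35, 1.95-fold higher (limma adjusted p = 0.0255). The groups were separate for all 3 probes, as for every call, but the last 2 calls were not kept when arrays were left out. MM9LINCRNAEXON11806+ had limma adjusted p values of 0.0748 without prenatal replicate 3 and 0.0825, 0.0802 and 0.0572 without adult replicates 1, 2 and 3. MM9LINCRNAEXON10294- had 0.0750 and 0.0759 without prenatal replicates 2 and 3 and 0.0853, 0.0990 and 0.0652 without adult replicates 1, 2 and 3. With normexp MM9LINCRNAEXON10294- had 0.0858, and with no filter on dim probes both were above the threshold, at 0.0756 for MM9LINCRNAEXON10294- and 0.0557 for MM9LINCRNAEXON11806+.

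**Figure D4:**
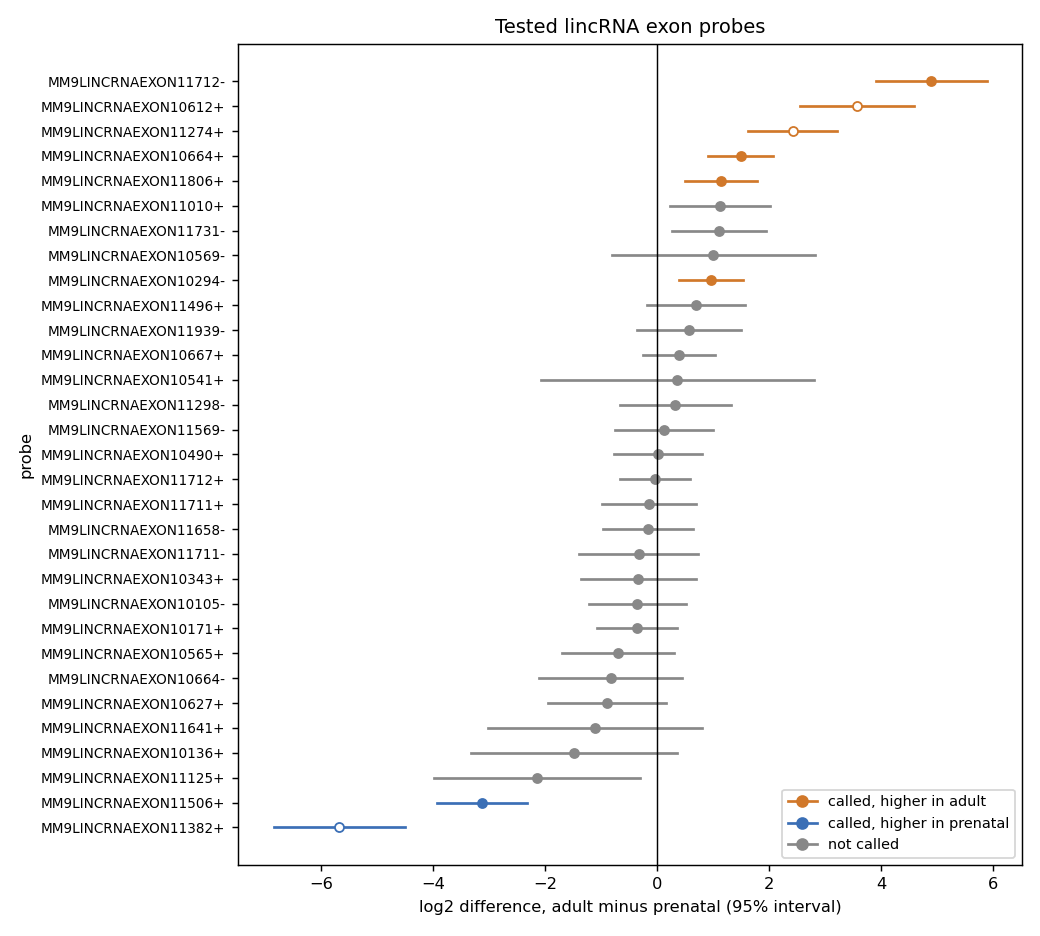
Log2 difference, adult minus prenatal (horizontal axis), with its 95% interval from the limma fit for each of the 31 tested exon probes. The 6 orange probes were called with more signal in the adult and the 2 blue ones with more before birth, with MM9LINCRNAEXON11712- at 4.90, and most of the 23 grey intervals span 0. Open circles, such as MM9LINCRNAEXON11382+ at the far left, mark probes detected on no array of one group, whose plotted difference is a fitted value against readings not well above background.

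Just outside the threshold lay mouselincRNA0843- (log2 difference 0.87, limma adjusted p = 0.0524) and mouselincRNA0440- (1.81, limma adjusted p = 0.0533). Among exon probes these were MM9LINCRNAEXON11731- (1.1, limma adjusted p = 0.0596) and MM9LINCRNAEXON11010+ (1.12, limma adjusted p = 0.0662). Without prenatal replicate 1, mouselincRNA0843-, MM9LINCRNAEXON11731- and MM9LINCRNAEXON11010+ passed (limma adjusted p = 0.0330, 0.0145 and 0.0198), and mouselincRNA0440- passed without adult replicate 2 (limma adjusted p = 0.0409). With the scan day as a block, mouselincRNA0843-, mouselincRNA0440- and MM9LINCRNAEXON11010+ passed (limma adjusted p = 0.0233, 0.0475 and 0.0109) and MM9LINCRNAEXON11731- did not (limma adjusted p = 0.0552).

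A missed threshold did not show equal levels for most probes. Of the 117 uncalled mouselincRNA probes, 18 had a 95% interval that lay wholly within a 2-fold change either way, and for 99 the interval reached a 2-fold change. For the exon probes these counts were 4 and 19. The smallest difference among mouselincRNA probes detected on all arrays was that of mouselincRNA1040-, at -1.74, -1.79 and -1.93 before birth and -1.95, -1.62 and -1.81 in the adult, which gave 0.03 and an interval of -0.53 to 0.59. mouselincRNA0390+, mouselincRNA1437+ and mouselincRNA0435+ had differences of 0.04, 0.04 and 0.06, with intervals of -0.75 to 0.83, -0.95 to 1.03 and -0.53 to 0.66. For the exon probes the smallest differences were 0.02 for MM9LINCRNAEXON10490+ (interval -0.77 to 0.80) and -0.04 for MM9LINCRNAEXON11712+ (interval -0.67 to 0.59).

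Where a locus has a probe for each strand sign, usually at most one of them was detected often enough to test. Of the 317 such mouselincRNA loci, neither probe was tested at 179, the plus probe alone at 52, the minus probe alone at 65, and both at 21. Since only 24.5% of all mouselincRNA probes were tested, few loci with both tested are to be looked for from that share alone. At the 117 loci with a single tested probe, 31 were called, 15 on the plus and 16 on the minus probe. Over all tested mouselincRNA probes the share called was 26.4%, and over all tested probes of the array 27.8%. Of the 12 such exons, both probes were tested at 3.

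At the 21 mouselincRNA loci with both probes tested, 11 had a single called strand, 8 of them plus and 3 minus, and no locus had both called. With 27.8% of all tested probes called, few loci with both called are to be looked for. These counts are therefore not read as a trait of the loci. A call on one strand alone does not show that the strands differ, so the change in the ratio of the plus to the minus probe was fitted over all 53 loci of the array with both probes tested, including those named humanlincRNA. The strands changed by different amounts at 16 of the 53 (30.2%), which included 10 of the 21 mouselincRNA loci and 2 of the 3 exons, and at each of these 12 a single strand was called. Without prenatal replicate 2 or 3, the mouselincRNA count fell from 10 to 3 and 2, and without adult replicate 1, 2 or 3 it was 1, 2 and 5. The exon count was 1 without prenatal replicate 2, prenatal replicate 3, adult replicate 1 or adult replicate 3. With normexp the mouselincRNA count was 2.

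The clearest strand differences were at mouselincRNA0939 and MM9LINCRNAEXON11712, called in each alternative fit. At mouselincRNA0939, where the plus probe rose 40.7-fold, the minus probe was detected on all arrays and read -1.51, -2.38 and -2.44 before birth and -1.41, -1.83 and -1.47 in the adult. Its own difference was 0.54 (limma adjusted p = 0.276; called at 0.84, limma adjusted p = 0.0388, without prenatal replicate 1), and the change of the plus probe exceeded that of the minus probe by 4.81 (SE 0.43, limma adjusted p = 0.000732). At MM9LINCRNAEXON11712 it was the minus probe that rose, while the plus probe read -1.24, -1.30 and -1.03 before birth and -1.41, -0.89 and -1.40 in the adult. The changes differed there by -4.94, plus less minus (SE 0.53, limma adjusted p = 0.00118). In both pairs all 4 probes were above background on all 6 arrays, so that neither difference rests on an undetected signal.

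At 3 further loci a strand was higher before birth while the other was detected at both ages. The minus probe of mouselincRNA1606 read 6.17, 7.41 and 7.57 before birth and 8.16 and 8.0 on adult replicates 1 and 2, adult replicate 3 being left out as an outlier spot. Against it stood the plus probe described above, which no adult array detected, so that the strand difference has a call (limma adjusted p = 0.0300) but no exact size. It was not called without prenatal replicate 2 or 3 (limma adjusted p = 0.0511 and 0.0559), without adult replicate 1 or 2 (0.184 and 0.0804) or with normexp (0.181). At mouselincRNA0435 the plus probe read 0.54, 0.32 and 0.05 before birth and 0.22, 0.46 and 0.41 in the adult. Its minus probe was likewise undetected on the adult arrays; the strand difference was called (limma adjusted p = 0.0259), but not without prenatal replicate 2 (0.0511), without adult replicate 1 or 2 (0.0919 and 0.0804) or with normexp (0.181). At mouselincRNA1294 the plus probe read -0.63, -1.89 and 0.08 against -0.42, -0.15 and -1.41, and the strands differed by 3.08 (SE 0.77, limma adjusted p = 0.0259), with the minus probe detected on 1 adult array. Without prenatal replicate 2 or 3 or adult replicate 1 or 2, that difference had limma adjusted p values of 0.0833, 0.0665, 0.0919 and 0.0899, and with normexp 0.0665. The plus probes of these last 2 loci overlapped between the ages, whereas their minus probes were separate.

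At mouselincRNA1337 the plus probe was higher before birth (1.52, -0.02 and 0.18 against -1.66, -1.39 and -1.48; limma adjusted p = 0.0148), and the minus probe read -4.78, -3.01 and -2.55 against -2.46, -1.85 and -2.33, a difference of 1.23 that did not pass (limma adjusted p = 0.167). The strand difference was -3.30 (SE 0.98, limma adjusted p = 0.0461), and -2.15 without prenatal replicate 1. It was not called in the fits without any one of the other 5 arrays (limma adjusted p = 0.0559 to 0.137). Without adult replicate 1, 2 or 3 the plus probe had limma adjusted p values of 0.0554, 0.0517 and 0.0565. At mouselincRNA1244 and mouselincRNA0544 the plus probe was higher in the adult, by 2.56 and 1.92, and the minus probe differed by -0.29 and -0.49 without passing; the strand differences were 2.85 (limma adjusted p = 0.0180) and 2.41 (limma adjusted p = 0.0312). The first was not called without prenatal replicate 3 or adult replicate 1 (0.0544 and 0.0600) or with normexp (0.0530), and the second without prenatal replicate 3 or any adult replicate (0.0665 to 0.100) or with normexp (0.0740). mouselincRNA0544+ was not called without adult replicate 2 (limma adjusted p = 0.0612), without adult replicate 3 (0.0527), among the 4 arrays of 1 scan day (0.0566) or with normexp (0.0706). The other 4 strand differences that passed had fitted values of -2.37 to 2.32, with limma adjusted p values of 0.0191 to 0.0491. That of mouselincRNA1551 was not called whichever array was left out (limma adjusted p = 0.0600 to 0.198). Those of mouselincRNA0305 and mouselincRNA1512 were kept only without prenatal replicate 1 (otherwise 0.0566 to 0.0684 and 0.0508 to 0.0919). That of MM9LINCRNAEXON10664 was not called without prenatal replicate 2 or 3 or adult replicate 1 or 3 (0.0511 to 0.0919).

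**Figure D5:**
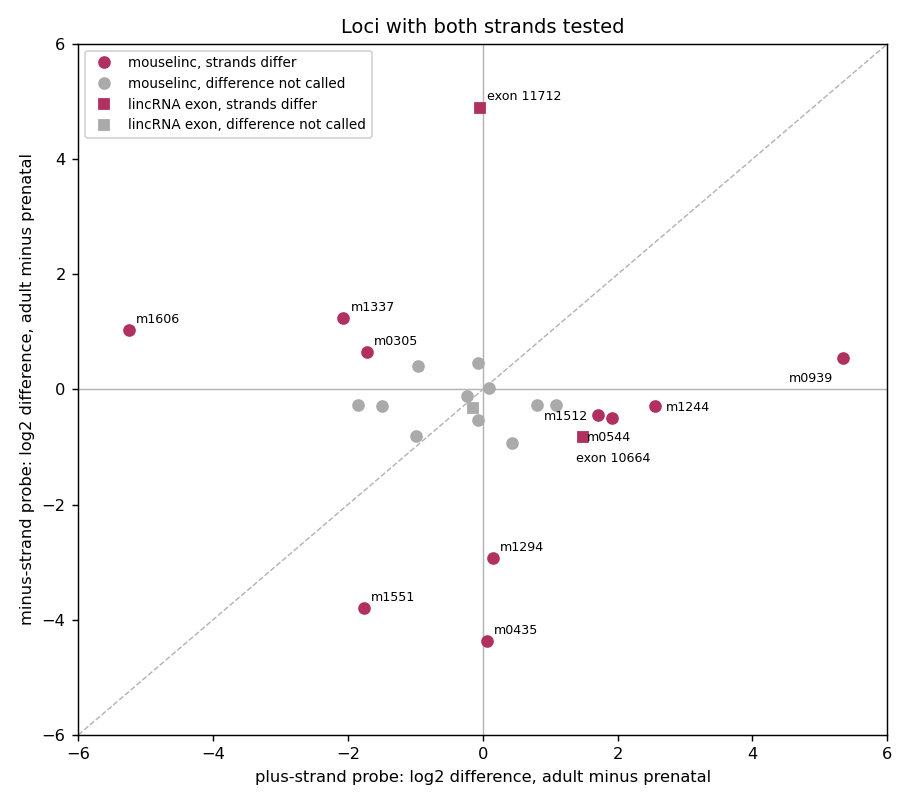
Log2 difference, adult minus prenatal, of the plus-strand probe (horizontal axis) and the minus-strand probe (vertical axis) at the 21 mouselincRNA loci (circles, labelled m and the locus number) and 3 exons (squares) with both probes tested; the dashed line marks equal change. The 12 red loci had a strand difference with a limma adjusted p under 0.05 and lie off that line, most of them along an axis, such as mouselincRNA0939 at 5.35 and 0.54. The positions of mouselincRNA1606, mouselincRNA0435 and mouselincRNA1551 rest on a probe that no adult array detected.

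In both classes the 2 prenatal pairs that held replicate 1 agreed less well than any adult pair. Prenatal replicates 2 and 3 agreed best of all pairs, at the upper end of the prenatal ranges given here. Across the tested mouselincRNA probes, which are not independent replicates and share the arrays' brightness, Pearson's r was 0.872 to 0.967 among prenatal, 0.929 to 0.963 among adult and 0.563 to 0.830 between prenatal and adult arrays. Across the tested exon probes these ranges were 0.924 to 0.983, 0.965 to 0.972 and 0.733 to 0.800.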

How the data were processed

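The authors deposited each array's spot intensity values as scanner output, made with Agilent Feature Extraction 11.0.1.1 (named in the submitters' processing notes); the processed signal was used. They also deposited log2 values for 17307 probes; 90.8% of these differed by less than 0.01 from quantile-normalised processed signals, which sets their scale and shows no centring by probe, and they served as an alternative. Detection and outlier flags in the deposited files are 0 or 1. Per the file headers the array design refers to mm9; no positions were used.

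Outlier spots were left out, spots of a probe averaged, and log2 signals set relative to the 75th percentile of non-control spots on each array. The 15 negative probes were not tested. limma 3.58.1 under R 4.3.3 (lmFit and eBayes, two-sided) compared the ages, after a check on simulated data; strand ratios were fitted likewise. Named are the 8 largest mouselincRNA calls in each direction, taken among calls with separate groups, and every called exon probe. Also named are up to 5 probes a direction seen in 1 group alone and up to 8 strand pairs with a call. The 4 and 2 smallest differences and the 2 a class just outside the threshold complete the list. The members and lists were chosen with earlier results of these data known. Each p-value sets the difference between the ages against the spread among these samples within an age, moderated across probes. Both ages share 1 estimate of that spread per probe. Alternatives varied background, scaling, filter, variance model, scan day, replicate block, array weights (gene-by-gene) and arrays left out.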

Additional observations from a re-analysis of the deposited data

How the results depend on the processing

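With the normexp correction, 26 mouselincRNA probes were called (18 higher in adult, 8 in prenatal liver) and 5 exon probes (3 higher in adult), with 6693 in all. The strands then differed at 6 loci in all and 2 mouselincRNA loci. Its offset of 50 shrinks the differences of dim probes by construction. That setting also took the median spot signal with its own background correction in place of the processed signal, and these parts were not fitted apart. Testing only probes detected on all 6 arrays gave 16 mouselincRNA calls (13 and 3), 4 exon calls with 0 higher before birth (limma; 1 at an unadjusted p under 0.05; both exon probes called so above were not then tested), 5957 calls in all, and strand differences at 3 loci in all and 1 mouselincRNA locus. Array weights gave 68 (43 and 25), 15 exon calls (10 and 5) and 15373 in all. Among the 4 arrays of 1 scan day, 13 exon probes were called, 4 higher before birth, with 1 exon strand difference and 9144 probes called in all. With the scan day as a block, 52 mouselincRNA, 10 exon and 11599 probes in all were called, and the strands differed at 19 loci, 10 of them mouselincRNA and 2 exons. The authors' values called 4539 of the 17307 probes they hold. Fitted with a replicate block, 24 mouselincRNA (17 and 7), 5 exon (3 higher in adult) and 4505 probes in all were called. The strands then differed at 4 loci, 1 of them mouselincRNA and 1 an exon. Deviations of same-numbered arrays from their group means correlated at -0.525, -0.349 and -0.313, with no positive link. Such deviations depend on each other and carry array-wide effects, so they cannot settle whether the numbers pair the arrays. The causes of the shifts between settings were not tested.

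Fits without 1 array each gave 27 to 49 mouselincRNA calls (19 to 34 and 8 to 15), 6 to 11 exon calls (4 to 9 and 2 to 2), 5313 to 11561 calls in all, and strand differences at 4 to 16 loci, 1 to 10 of them mouselincRNA and 1 to 2 exons. Every mouselincRNA and exon call shared with an alternative kept its direction, which is largely built in, since the settings reuse the same arrays. Among the probes named here, the differences that changed sign were all of uncalled probes. Sign changes of the other uncalled probes are not listed. With normexp these were MM9LINCRNAEXON10490+ at -0.0094, MM9LINCRNAEXON11712+ at 0.035 and mouselincRNA1244- at 0.055. Among the arrays of 1 scan day they were MM9LINCRNAEXON11712+ at 0.014 and mouselincRNA0390+ at -0.267. With array weights they were mouselincRNA0390+ at -0.332, mouselincRNA0544- at 0.022, mouselincRNA1294+ at -0.357 and mouselincRNA1437+ at -0.135. Without 1 array each, differences ranged from -0.237 to 0.243 for MM9LINCRNAEXON10490+, -0.215 to 0.046 for MM9LINCRNAEXON11712+, -0.275 to 0.252 for mouselincRNA0390+, -0.063 to 0.178 for mouselincRNA0435+, -0.963 to 0.083 for mouselincRNA0544-, -0.059 to 0.106 for mouselincRNA1040-, -0.536 to 0.121 for mouselincRNA1244-, -0.384 to 0.598 for mouselincRNA1294+ and -0.245 to 0.330 for mouselincRNA1437+.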

Other observations

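Probes with adjacent numbers in their names were set side by side, though the files do not say whether numbers follow the genome, and the pairs named here were picked after their values were seen. Among 9 pairs of tested mouselincRNA probes with adjacent numbers and the same strand sign, 2 differed in the same direction between the ages, and so did 2 of 9 pairs with opposite signs. In 2 pairs both probes were called: mouselincRNA0543- and mouselincRNA0544+ were both higher in the adult, by 1.95 and 1.92, whereas mouselincRNA1222+ was higher in the adult by 2.30 and mouselincRNA1223- higher before birth, with a difference of -1.45.

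Of the probes detected on a single array, which were not tested, 14 mouselincRNA probes were seen on prenatal replicate 1 alone, 14 on prenatal replicate 2 alone, 3 on prenatal replicate 3 alone and 9 on adult replicate 1 alone. Adult replicates 2 and 3 had 0 such mouselincRNA probes. Over all non-control probes the counts were 849, 2666 and 310 on prenatal replicates 1, 2 and 3 and 494, 181 and 539 on adult replicates 1, 2 and 3. For the exon probes these counts were 4 on prenatal replicate 1 and 3 on prenatal replicate 2, and 0 on each of the other arrays.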
